A study of Mus musculus with 10 samples.

Results

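Ribosomal protein genes encode the proteins that, with ribosomal RNA, build the small and large subunits of the ribosome. They were taken here as the gene symbols made of Rpl or Rps, a number and at most one of the letters a, l and x, together with Rplp0, Rplp1, Rplp2 and Rpsa. Pseudogene symbols ending in -ps were left out. Of 49568 genes in the table, 82 matched and 78 of these had a mean of at least 10 normalized counts over all lines. These 78 are 32 genes of the small subunit, 43 of the large subunit and the 3 genes of the P stalk. Rpl6l and Rps4l are annotated as processed pseudogenes, that is, as copies of an mRNA inserted into the genome. Rps4l was below the filter for testing (at least 10 normalized counts in at least 5 lines), so that 77 genes entered the tests.

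Messenger RNA had been sequenced from 10 mouse pancreatic cancer cell lines, with 1 library from each line. Those with the KPC genotype were A1081, A1620, A1625, A2031 and A2032. Those with the KPCAf/f genotype were A1693, A1809, A1925, A2441 and A3992. The term KPC is used in the field for mice whose pancreatic tumours are driven by mutant oncogene and tumour suppressor alleles. KPCAf/f is not explained in the labels. Since the series is about Arid1a, a subunit of the SWI/SNF chromatin remodeller, the name is read here as KPC with floxed Arid1a alleles. The labels give neither the promoter that drove Cre, nor the age of the mice, nor a treatment of the lines, and they do not say whether each line came from its own mouse. P-values therefore measure only the spread between these lines, which may be technical. The recovered reads per library ranged from 15124888 in A2441 to 20419830 in A1809, so that 1 normalized count is close to 1 read. Arid1a itself averaged 2114 ± 844 normalized counts over the KPC lines and 1465 ± 221 over the KPCAf/f lines (SD, n = 5 each), and the lowest value of all, 820, was in the library labelled KPC A1620. Which part of Arid1a would be deleted is not in the labels, so that this count over the whole gene is a weak check of them. A1620 also had lower values at longer transcripts, as described below, and the part of that trend in its Arid1a count was not tested.

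A growing cell makes ribosomal proteins in nearly equal numbers, because each ribosome holds a single copy of almost every one of them. Their mRNAs are among the most abundant in the cell and are mostly short. Most begin with a C followed by a run of C and T, the terminal oligopyrimidine tract, through which LARP1 and the mTOR pathway control their translation. The values below are mRNA levels and say nothing of translation.

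RefSeq start sites (GRCm38.p6) were found for 56 of the 78 genes. The annotated start was a C followed by 4 bases that are each C or T in 13 of the 56 (23.2%), against 3.01% of 27025 genes in the same RefSeq table. A run of at least 8 C or T bases within 10 bases on either side of the start, which can overlap that first pattern, was present in 20 of the 56 (35.7%), against 8.71%. The letters CCGGAAG, the core of ETS-family sites, stood on either strand in the 300 bases around the start of 24 genes (42.9%), against 9.93%. AAGATGGCG, the core of the YY1 site, was present in 3 (5.36%), against 1.64%. TATAAA on the gene's strand from 40 to 15 bases before the start was present in 0 of the 56, against 2.41%. These are matches of letters in annotated windows, not measured sites. The following start sites belong to genes described below and show the tract where it is annotated at the start itself. Each runs from 5′ to 3′ along the gene, with the 15 bases before the start in lower case and the first 15 transcribed bases in capitals.
Rps6: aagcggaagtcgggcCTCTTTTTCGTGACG
Rps27: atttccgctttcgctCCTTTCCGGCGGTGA
Rpl15: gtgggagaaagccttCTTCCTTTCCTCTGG
Rpl38: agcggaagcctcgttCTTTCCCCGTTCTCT
Rplp2: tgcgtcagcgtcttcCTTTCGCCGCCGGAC
Rps15a: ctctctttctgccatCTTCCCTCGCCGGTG
The windows lie at chr4:86857353-86857382 (minus strand, Rps6), chr3:90213634-90213663 (minus, Rps27), chr14:18270972-18271001 (minus, Rpl15), chr11:114668565-114668594 (plus, Rpl38), chr7:141447636-141447665 (plus, Rplp2) and chr7:118116133-118116162 (minus, Rps15a). In each of them the capitals open with a C and at least 4 further C or T bases.

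A1620 stood apart from every other line. Ribosomal protein genes took 12.7% of its reads, against 4.25% in A1081, 4.75% in A1625, 4.27% in A2031 and 4.18% in A2032. In KPCAf/f the share was 4.58% in A1693, 4.34% in A1809, 3.91% in A1925, 3.31% in A2441 and 3.66% in A3992. The mean share was thus 6.03% ± 3.74 in KPC (SD, n = 5) and 3.96% ± 0.51 in KPCAf/f (SD, n = 5), and without A1620 the KPC mean was 4.36% ± 0.26 (SD, n = 4). The ranges of the genotypes overlapped in either case. A1620 also differed in its trend with transcript length over all genes. Each doubling of length went with a log2 change of -0.66 relative to the mean of all lines. This slope was -0.02 to 0.04 in the remaining KPC lines, and KPCAf/f lines had slopes of 0.09 to 0.14. Results that rest on A1620 are therefore given with and without it. The cause of its values was not tested.

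**Figure D1:**
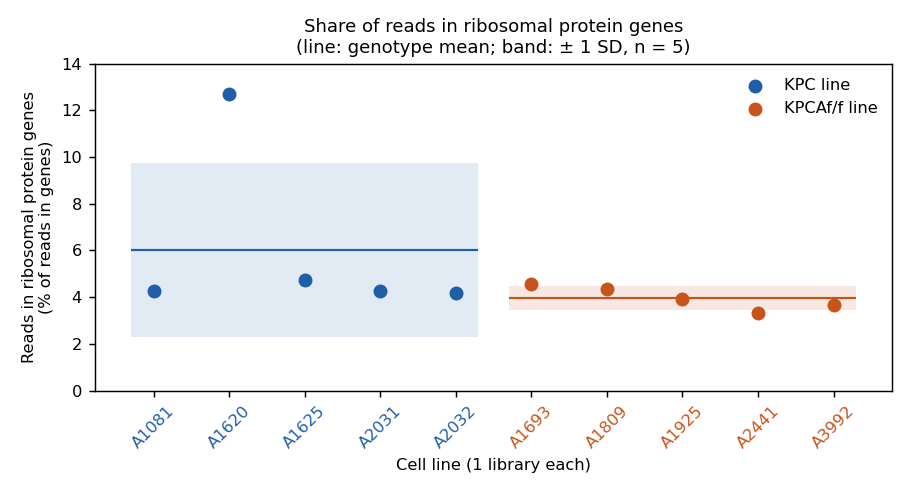
Share of each library's reads that fell in the 78 ribosomal protein genes (y axis, percent) by cell line (x axis), with KPC in blue and KPCAf/f in orange. Horizontal lines are genotype means and bands are ± 1 SD. A1620 lies at 12.7%, and the other 9 lines lie between 3.31% and 4.75%.

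The genes were abundant in every line. Of the 76 that are not annotated as pseudogenes, mean normalized counts over the 10 lines ran from 1783 for Rps27l to 45970 for Rplp0, before any allowance for length. Per kilobase of transcript, the highest level was that of Rplp1, at 46628 normalized counts per kb. Rps12, Rplp0 and Rps15 followed at 34415, 33852 and 30676 per kb. Rplp0, Rplp1 and Rplp2 form the P stalk, the flexible arm of the large subunit that recruits elongation factors. At the other end stood the copies Rpl6l (28.8 per kb) and Rps4l (114 per kb). Among the genes proper, Rps15a had the lowest level at 1657 per kb and Rpl13a the next at 1808 per kb. The Rps15a value rests on a principal transcript of 5179 bases, and over its shortest principal transcript of 640 bases the level was 13405 per kb. Rpl13a, which also takes part in the translational silencing of inflammatory mRNAs, has 1 principal transcript length, but 59.3% of its exon bases overlap exons of other genes on the same strand. Rpl24, a large subunit protein, averaged 5.54 normalized counts and was left out by the minimum, and 71.5% of its exon bases lie in exons of another gene, Gm28037, on the same strand.

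In A1620 all 77 tested genes had their highest level of the 10 lines, whereas 25.9% of all tested genes did. Its excess over the mean of the other 4 KPC lines had a median of 1.96 on the log2 scale and ran from 0.80 for Rpl15 to 2.65 for Rplp2. For all tested genes the median was -0.05. Rplp2 had 42063 normalized counts in A1620 and 6497, 7682, 7590 and 5385 in A1081, A1625, A2031 and A2032. Rpl36, of the large subunit, had 19459 in A1620 and 3042, 3156, 4223 and 3256 in those lines. Rpl15, whose protein sits in the core of the large subunit, had 8178 in A1620 and 4791, 5013, 4856 and 4205. Linear folds of A1620 over the mean of the other 4 were 6.20 for Rplp2, 5.69 for Rpl36 and 1.73 for Rpl15. The excess thus differed several-fold from gene to gene.

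The excess was then read against what genes of the same length that are not ribosomal protein genes did in A1620. The median transcript length was 878 bases for the 77 genes and 2939 bases for all tested genes. At their lengths the trend alone gave a median excess of 1.06, and the median of what remained was 0.86 (lowest -0.18, highest 2.81). It was above 0 in 76 of the 77, the exception being Rps27l at -0.18, and in 54.9% of all tested genes. It was above 1, a doubling, in 23 of 77 (29.9%), against 13.8% of all tested genes. Within the 77 genes the excess itself tended to be smaller in longer transcripts (Pearson r -0.30, Spearman rho -0.37 over 77 genes, which share the library). The remainder after the trend was larger in longer transcripts (r 0.68, rho 0.50). The remainders of the genes with the longest listed transcripts, Rps15a (2.81) and Rps20 (2.40), therefore depend on which transcript sets the length.

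**Figure D2:**
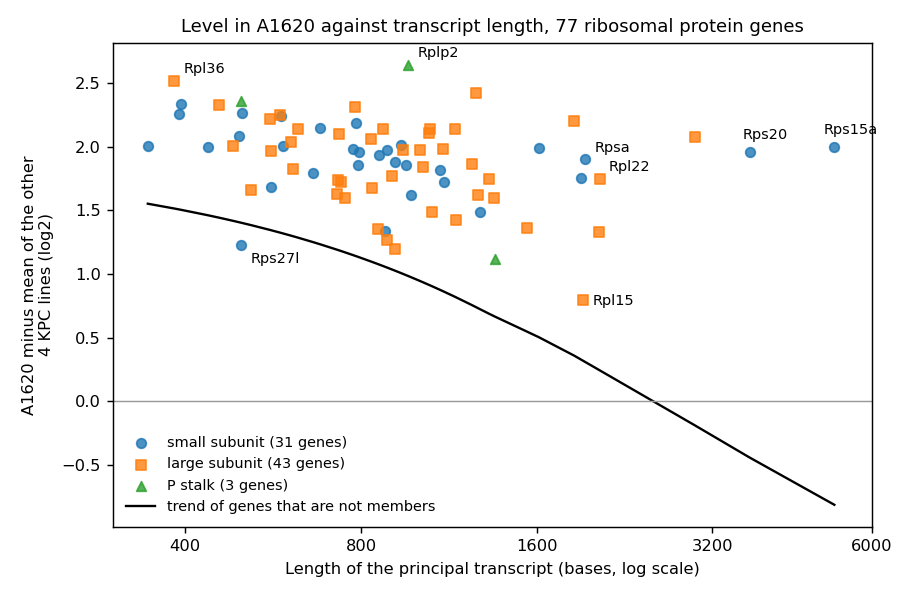
Level in A1620 minus the mean of the other 4 KPC lines (y axis, log2) against the length of the principal transcript (x axis, bases, log scale) for 77 ribosomal protein genes, marked by subunit. The black curve is the trend of genes that are not ribosomal protein genes, and 76 of the 77 points lie above it.

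In the other 9 lines the genes were steady. The SD over these lines on the log2 scale had a median of 0.27, against 0.44 for all tested genes. It was below 0.5 in 73 of the 77, against 7487 of 13089 tested genes. The 77 genes were also more abundant, with a median mean normalized count of 9668 against 576. The part of abundance in their low SD was not tested. Rps28 (0.11), Rps29 (0.14), Rps10 (0.15) and Rpl21 (0.16) varied least. Rpl29 (1.44) and Rpl34 (0.92) varied most. A2441 had the lowest level of all 10 lines in 46 of the 77 genes, A3992 in 16 and A1925 in 6. Once A1620 was set aside, A1625 was the highest line in 24 genes, A1693 in 16, A1081 and A2031 in 11 each, A2032 in 10 and A1809 in 5. The matching counts over all tested genes are not given here. The mean log2 level of the 77 genes was 12.34 in A2441, 12.58 in A3992, 12.65 in A1925, 12.79 in A1809 and 12.92 in A1693. In the KPC lines other than A1620 it was 12.82 to 13.03. By this mean only A1693 of the KPCAf/f lines lay among KPC, with A1809 just below.

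**Figure D3:**
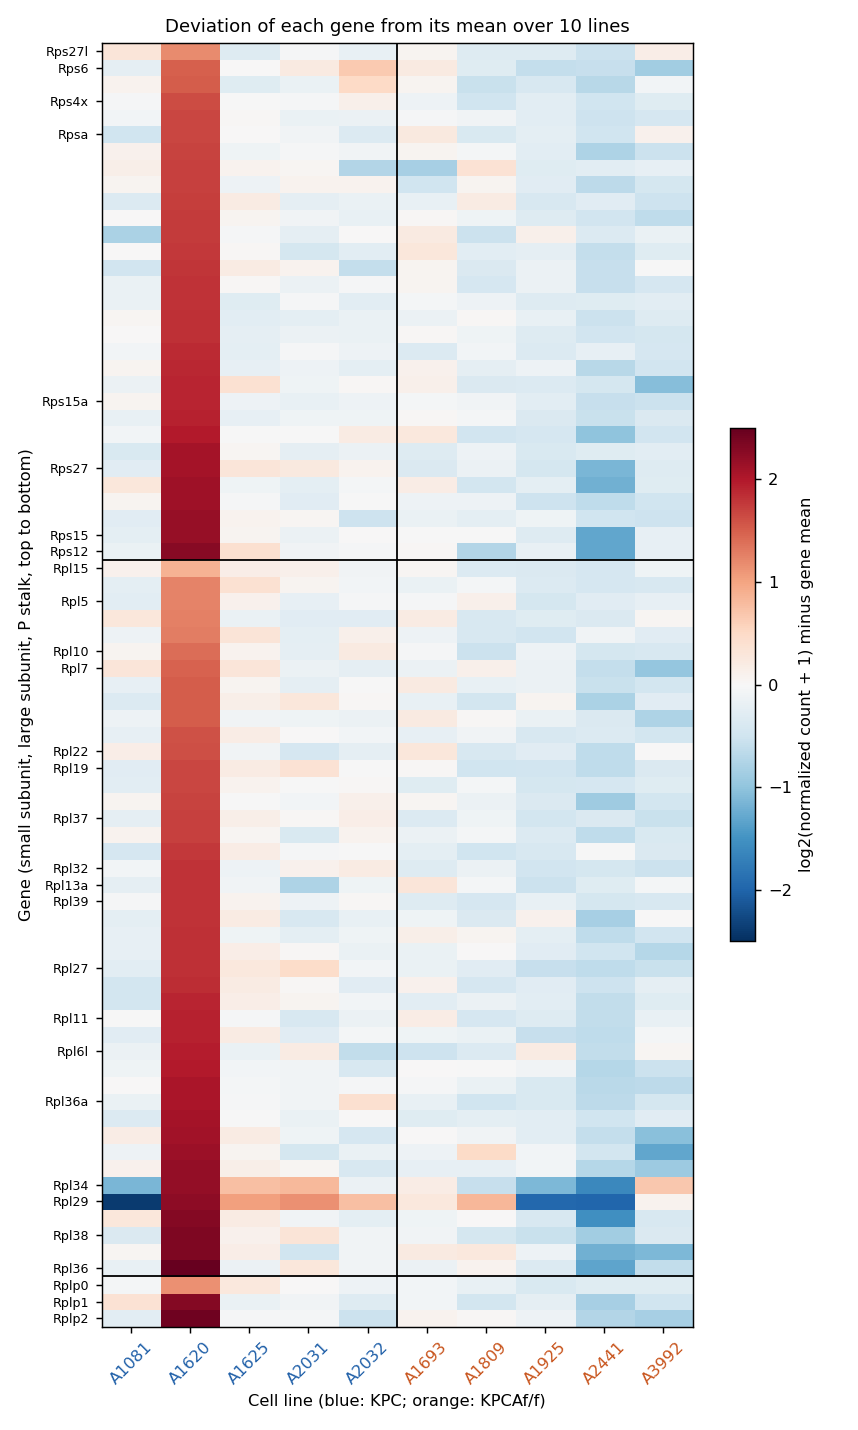
Deviation of each of 77 genes (rows) from its own mean over the 10 lines (columns), as log2(normalized count + 1), with red above and blue below the mean. Row labels mark genes named by the rule for named genes. Black lines separate the genotypes and the subunits. The A1620 column is above the mean in every row. Rpl29 shows the strongest blue cells, in A1081, A1925 and A2441, and Rpl34 is also below its mean in those lines.

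The comparison of KPCAf/f with KPC asks how ribosomal protein gene expression differs between tumour lines with and without the floxed Arid1a alleles. With all 10 lines no gene passed the limma threshold in either direction (0 of 77 at adjusted p under 0.05), against 1.75% of the 13089 genes tested. The lowest limma adjusted p was 0.267. At an unadjusted p under 0.05, 8 were lower and 0 higher in KPCAf/f, against 6.26% and 8.39% of all tested genes. The log2 difference was below 0 in all 77, against 50.8% of all tested genes, with a median of -0.61 and a range from -1.10 to -0.25, where the median of all tested genes was -0.01. The medians were -0.60 over 31 small subunit genes, -0.62 over 43 large subunit genes and -0.62 over the 3 P stalk genes. In such bulk libraries, fewer cells of a type and less RNA per cell cannot be told apart.

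The size of this difference depended on A1620. Without it the median was -0.27, 74 of 77 genes were below 0 (51.4% of all tested genes), 0 of 77 passed (1.37% of all tested genes), and 12 were lower at an unadjusted p under 0.05 (6.88% of all tested genes). The lowest limma adjusted p was then 0.194. After each line was corrected for its own trend with transcript length, the median was -0.29, against -0.06 for all tested genes. Then 73 of 77 were below 0 (55.6% of the 12780 genes with a length), 0 passed (background 1.90%) and 0 were lower at an unadjusted p under 0.05 (background 8.45%). That last count depended on the setting. It was 27 of 78 when genes with low values were kept (background 8.32%), with a length-corrected median of -0.59, and 16 of 77 without A1693 (background 10.2%). With the correction and without A1620, the median was -0.15 and 56 of 77 were below 0, against 53.9%. Under quantile scaling the length-corrected median changed sign to 0.06, with 52 of 77 above 0, so that the direction after length correction depends on the scaling. EdgeR and DESeq2 on the recovered reads also called 0 of 77 lower, against 0.206% and 1.66% of the genes each tested. At an unadjusted p under 0.05 they had 30 and 29 lower, against 5.96% and 6.48%.

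**Figure D4:**
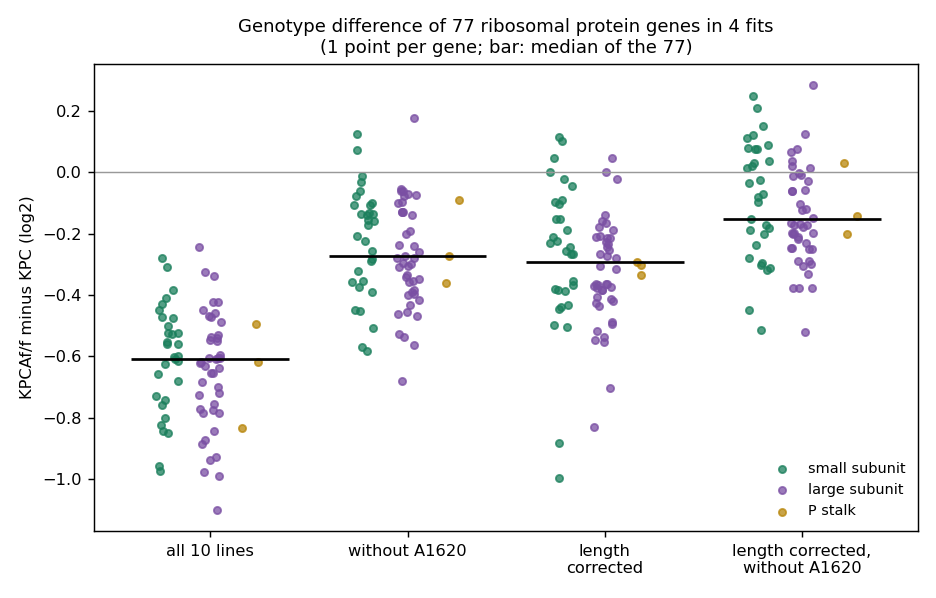
Log2 difference KPCAf/f minus KPC (y axis) of 77 ribosomal protein genes, 1 point per gene, in 4 fits (x axis), coloured by subunit, with the median as a black bar. The medians are -0.61 with all lines, -0.27 without A1620, -0.29 after length correction and -0.15 with both.

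Among the small subunit genes, Rps6 and Rps27 had the smallest unadjusted p. Rps6 is the substrate of the S6 kinases downstream of mTOR. It had 6500, 21549, 7663, 8871 and 11949 normalized counts in KPC lines A1081, A1620, A1625, A2031 and A2032. In KPCAf/f lines A1693, A1809, A1925, A2441 and A3992 it had 8932, 6165, 5048, 5116 and 4195. The genotypes overlapped through A1693, which lay above 3 KPC lines. The log2 difference was -0.85 (SE 0.33, limma adjusted p = 0.267), and -0.58 without A1620 (limma adjusted p = 0.307). Rps27, a zinc-finger protein of the small subunit, had 5596, 28952, 8342, 8036 and 7220 in KPC and 5269, 6132, 5013, 3085 and 5412 in KPCAf/f. Here 1 KPCAf/f line, A1809, lay above the lowest KPC line, A1081 (log2 difference -0.97, SE 0.40, limma adjusted p = 0.296). Rpsa, which is also known as a laminin-binding protein, averaged 32081 ± 25374 over the KPC lines and 22103 ± 4972 over the KPCAf/f lines (SD, n = 5 each). Its log2 difference of -0.31 (limma adjusted p = 0.728) turned to 0.07 without A1620.

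Of the large subunit genes, Rpl27 had 2289, 9777, 3274, 3764 and 2598 normalized counts in the KPC lines and 2425, 2256, 1825, 1774 and 1874 in the KPCAf/f lines. A1693 was the KPCAf/f line above the lowest KPC line (log2 difference -0.89, SE 0.35, limma adjusted p = 0.269). Rpl19, Rpl15, Rpl36a, Rpl32 and Rpl37 were the other genes with an unadjusted p under 0.05. Their log2 differences were -0.78, -0.47, -0.87, -0.77 and -0.72, with limma adjusted p from 0.310 to 0.334. Rpl15, the large subunit gene that differed least in A1620, kept -0.31 of its -0.47 without that line. Rpl38, which mouse genetics tied to the translation of Hox mRNAs, had a log2 difference of -0.93 (limma adjusted p = 0.361), and -0.46 without A1620.

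Rpl5 and Rpl11 form a particle with the smallest ribosomal RNA, and the free particle binds and blocks Mdm2, the ubiquitin ligase of p53. Rpl5 had 14126 ± 7385 normalized counts over the KPC lines and 10371 ± 1596 over the KPCAf/f lines (SD, n = 5 each), and Rpl11 at 10965 ± 9497 and 6225 ± 1329. Without A1620 their KPC means were 10861 ± 1287 and 6730 ± 813 (SD, n = 4), and the log2 differences were -0.07 and -0.13. Neither passed with or without that line. Mdm2 and the p53 target Cdkn1a had log2 differences of -0.05 and 0.43, and Trp53 of 0.62. All 3 of these genes overlapped between genotypes, and limma adjusted p ran from 0.582 to 0.927. Rpl22, whose loss is known from T-cell development, had 4652 ± 1181 in KPCAf/f and 4827 ± 844 in KPC without A1620 (SD, n = 5 and 4).

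The P stalk genes did not pass either. Rplp0 had 42290, 96303, 52310, 44037 and 40131 normalized counts in the KPC lines and 41958, 38295, 33419, 35327 and 35634 in the KPCAf/f lines. Only A1693 of KPCAf/f exceeded the lowest KPC line. The log2 difference was -0.50 for Rplp0, -0.83 for Rplp1 and -0.62 for Rplp2, and without A1620 it was -0.27, -0.36 and -0.09.

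The genotypes did not overlap in 4 of the 77 genes, all lower in KPCAf/f, with A1620 and without it, namely Rpl32, Rpl36a, Rpl39 and Rps4x. Over all tested genes the share that was lower without overlap was 1.69% with A1620 and 2.72% without it. Rpl32 (chr6:115805505-115808747, GRCm38) had 15451, 56141, 14765, 17324 and 18641 normalized counts in the KPC lines and 12858, 14544, 11620, 11863 and 11093 in KPCAf/f. The gap between the lowest KPC line, A1625, and the highest KPCAf/f line, A1809, was therefore narrow. Rpl39, a small protein that lines the exit tunnel, had 3601, 12943, 3930, 3365 and 3755 in KPC and 2967, 2745, 3263, 2737 and 2804 in KPCAf/f. Rps4x had 21071, 67207, 21498, 21147 and 23655 in KPC and 19717, 15344, 17975, 15261 and 17383 in KPCAf/f. Rpl36a had 5325, 24554, 5863, 5628 and 7865 in KPC and 5216, 4207, 4559, 3793 and 4375 in KPCAf/f. Without A1620 the log2 differences were -0.42 for Rpl32, -0.34 for Rpl39, -0.36 for Rps4x and -0.47 for Rpl36a, with limma adjusted p from 0.194 to 0.272. After length correction the groups of 0 of the 77 genes stood apart, against 2.04% of all genes with a length.

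Of these 4 genes, Rpl36a, Rpl39 and Rps4x are X-linked (chrX:134585654-134588062, chrX:37082520-37085402 and chrX:102184941-102189394). The remaining X-linked ribosomal protein gene, Rpl10, had a log2 difference of -0.62 and overlapped. Of 413 X-linked genes tested, 14 (3.39%) were lower without overlap. Sex-linked transcripts also followed the genotype. The summed Y-linked count of a KPC line was 1521 to 3727, and that of a KPCAf/f line was 0 to 3.37. Xist was at 5278 to 18451 in A1809, A1925, A2441 and A3992, at 3.60 in A1693, and at 1.96 to 6.63 in KPC. The Y-linked counts thus separate the lines exactly as the genotype does. For every gene compared here, X-linked or autosomal, an effect of the genotype and one of the lines' sex chromosomes cannot be told apart.

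Of the cell type markers listed, only fibroblast genes passed between the genotypes, and the sums of leukocyte, acinar and endothelial markers overlapped. All 5 tested of 7 fibroblast markers were called higher in KPCAf/f (limma), against 178 of 13089 tested genes. The sum over the 7 was 56.8 to 173 normalized counts for KPC lines and 14526 to 88327 for KPCAf/f lines. The sum of the 6 pancreatic epithelial markers was 116328 to 266096 in KPC and 5910 to 113264 in KPCAf/f. Of the 6, 0 passed and 3 were lower at an unadjusted limma p under 0.05, against 6.26% of all tested genes. Their median log2 difference was -2.09. Pdx1, a pancreatic transcription factor, was at 2.70 normalized counts in A1693 and at 594 or more elsewhere. Cdh1, which encodes E-cadherin, was at 10.8 in A1693 and at 3143 or more elsewhere. A1693 was thus low in Pdx1 and Cdh1. Without A1693 the median log2 difference of the 77 genes was -0.66. The leukocyte markers summed to 34.6 to 81.4 in KPC and 37.9 to 293 in KPCAf/f. The 5 acinar markers summed to 31.8 to 180 in KPC and 4.91 to 117 in KPCAf/f, with Prss1 and Amy2a5 at 0 in all 10 lines. The 3 endothelial markers summed to 6.19 to 438 in KPC and 2.70 to 664 in KPCAf/f. The part of the cell state or cell mixture in the ribosomal protein gene values was not tested.

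Rpl29 and Rpl34 were the exceptions to the narrow spread, and their levels followed the line more than the genotype. Rpl29, a large subunit protein also known to bind heparin, had 351, 8720, 3788, 4125 and 3132 normalized counts in A1081, A1620, A1625, A2031 and A2032. In A1693, A1809, A1925, A2441 and A3992 it had 2237, 3314, 476, 472 and 1980. It was thus low in A1081, A1925 and A2441, across both genotypes, and its highest and lowest of the 9 lines other than A1620 differed 11.7-fold. Rpl34 had 1579, 16066, 5831, 6152 and 3136 in the KPC lines and 3952, 2333, 1592, 1138 and 5542 in the KPCAf/f lines, a 5.41-fold range without A1620. The lowest 3 lines were again A1081, A1925 and A2441. Over the 10 lines Rpl29 and Rpl34 had a Pearson r of 0.87 and a Spearman rho of 0.87, as a description that includes A1620. The log2 differences between genotypes were -1.10 (SE 0.84, limma adjusted p = 0.563) and -0.99 (SE 0.60, limma adjusted p = 0.471).

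A processed pseudogene of Rpl29, Gm8210, was at 44.5, 34.2, 45.5, 58.5 and 30.0 normalized counts in A1081, A1693, A1925, A2441 and A3992, and at 0 in the other 5 lines. The lines with Gm8210 reads include the 3 with the least Rpl29. Gm8210 was looked up after these values were seen. Of the 50-base words of the Rpl29 transcript, 66.8% also occur in transcripts of other genes, and 37.9% for Rpl34. Reads from such stretches can be shared between a gene and its copies. The sources used here do not say how reads that map to several places were counted. The levels of Rpl29 and Rpl34 are uncertain for that reason. Shared words are not particular to them, since steady genes can share more. Rpl35, for example, shares 95.1% of its words and had an SD of 0.25 over the 9 lines. Whether shared reads have a part in the spread of Rpl29 and Rpl34 was not tested.

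Rps4l, the untested copy of Rps4x on an autosome, had 1018 normalized counts in A1925 and 0 to 20.6 in the other 9 lines. Its parent Rps4x was at 17975 in A1925, within the range of the other KPCAf/f lines.

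Some ribosomal protein genes have symbols that the rule does not cover. The 8 of them in the table, Rps3a1, Fau, Rack1, Rpl22l1, Rpl7l1, Rpl36al and Rps27rt among them, had a median log2 difference of -0.68 (-0.34 without A1620), and 0 of 8 passed. Their median excess in A1620 was 1.69. Of these, Rps3a1 had the largest difference between genotypes, at -1.71 (SE 0.65, limma adjusted p = 0.260). Rps3a1 encodes a small subunit protein that touches initiation factors.

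Rps3a1 (chr3:86137940-86142702, minus strand, GRCm38) and its processed pseudogene Rps3a3 (chr13:108670603-108671397, plus strand) were inversely related over the 10 lines (Spearman rho -0.77). Over the 795 bases of Rps3a3 the sequences differ at 9 positions (98.9% identity, 0 gaps). A stretch of 60 coding bases shows how few bases separate them, with the differing bases in capitals.
Rps3a1: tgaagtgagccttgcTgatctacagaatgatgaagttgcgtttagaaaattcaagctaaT
Rps3a3: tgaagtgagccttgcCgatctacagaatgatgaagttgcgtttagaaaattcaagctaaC
Rps3a1 had 2781 normalized counts in A1081 but 40721, 16891, 15224 and 16714 in A1620, A1625, A2031 and A2032. Rps3a3 had 3861 in A1081 and 35.8, 19.6, 15.6 and 13.4 in those 4 lines. In KPCAf/f lines A1693, A1809, A1925, A2441 and A3992, Rps3a1 was at 3031, 9523, 7115, 2093 and 3034. Rps3a3 was at 4587, 2707, 2039, 3091 and 4310 in the same lines.

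The pseudogene's share of the summed count was 58.1% in A1081, 60.2% in A1693, 59.6% in A2441 and 58.7% in A3992. It was 22.1% in A1809 and 22.3% in A1925, and 0.080% to 0.12% in A1620, A1625, A2031 and A2032. The lines thus fell at 3 levels of this share, and A1081 was the KPC line that lay with KPCAf/f. The inverse relation lay between these levels. Within them, A1809 exceeded A1925 in both genes, and A2441 was the lowest line of its level in both. The sum of both genes varied less than Rps3a1 alone, 3.26-fold against 8.07-fold over the 9 lines without A1620. The log2 difference between genotypes was -1.03 for the sum against -1.71 for Rps3a1, and -0.70 against -1.32 without A1620. The share of Rps3a3 was computed after its values were seen, and whether the lines differ in sequence at either place was not tested.

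**Figure D5:**
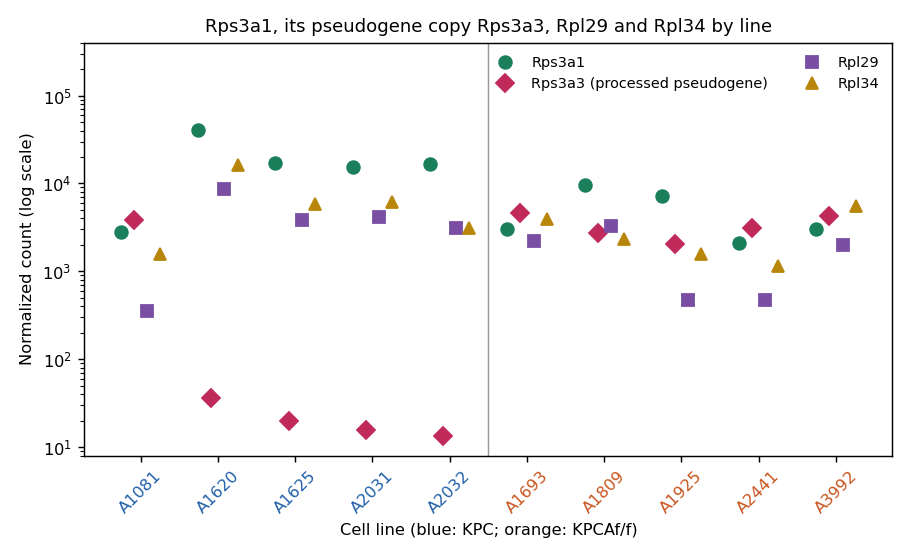
Normalized counts (y axis, log scale) of Rps3a1, Rps3a3, Rpl29 and Rpl34 in each cell line (x axis), with points shifted sideways for visibility. Rps3a3 lies between 13.4 and 35.8 in A1620, A1625, A2031 and A2032 and between 2039 and 4587 in the other 6 lines.

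The levels of other processed pseudogenes of these genes also ranged widely over the lines. Of 864 that share at least one 50-base word with a ribosomal protein gene or Rps3a1, 54 reached 100 normalized counts in some line, and 20 of these 54 (37.0%) had at least a 20-fold range over the lines, computed with 1 added to each value. The share was 46.1% among other processed pseudogenes, 17.7% among protein-coding genes, and 1 of 76 among the protein-coding ribosomal protein genes, that one being Rpl29. Without A1620, 21 of the 864 copies reached 100 normalized counts in some line and 11 of these 21 (52.4%) had such a range, against 46.4% of other processed pseudogenes and 16.5% of protein-coding genes. It was then 0 of 76 among the protein-coding ribosomal protein genes. The share among these copies was thus below that of other processed pseudogenes with A1620 and above it without A1620, and the difference was not tested. Rps13-ps1 (chr8:87047689-87048226) had 5701, 1020, 844, 478 and 383 normalized counts in A1620, A1625, A2031, A2032 and A2441, and 0 to 1.76 in the other 5 lines. Rps15a-ps8 (chr4:53791070-53791456) was present in the same 5 lines, at 858, 224, 165, 106 and 109, and at 0 to 2.46 elsewhere. Rps24-ps3 (chrX:79195047-79195448) had 6848, 1212 and 1093 in A1620, A1081 and A2032, and 8.99 to 33.5 in the other 7 lines. The parents Rps13, Rps15a and Rps24 had at least 3603, 4974 and 10130 normalized counts in every line. These copies were singled out after their values were seen.

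The ratio of a ribosomal protein gene to its paralog does not depend on the scaling of a library. It can depend on a trend with transcript length where the transcripts of a pair differ in length, and no length correction was made. The listed transcripts have 1276 bases for Rpl36al against 483 for Rpl36a, and 2606 for Rpl7l1 against 1163 for Rpl7. Rpl36a is also X-linked. Of 5 such pairs, 0 passed when every split of the lines into 5 and 5 was enumerated (exact permutation test, two-sided, smallest possible p 0.00794). Rps27l, a p53-responsive paralog of Rps27, had the lowest remainder in A1620 after the length trend. Its log2 ratio to Rps27 was -2.31 ± 0.56 in KPC and -1.72 ± 0.32 in KPCAf/f (SD, n = 5 each, exact permutation p = 0.0952, adjusted over 5 pairs 0.238). The ratio of Rpl36al to Rpl36a was -2.63 ± 0.24 and -2.21 ± 0.16 (exact permutation p = 0.0238, adjusted 0.119). Rpl7l1 to Rpl7 differed by 0.43 (exact permutation p = 0.333), by 0.20 without A1620 and by 0.15 without A3992. Rpl22l1 to Rpl22 differed by -0.31 (exact permutation p = 0.556). Rps4l to Rps4x differed by 1.61 (exact permutation p = 0.532), and that value rests on A1925.

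Other genes of the translation apparatus gave the same count of calls. Of 16 genes of translation factors and other mRNAs with a terminal oligopyrimidine tract, 0 passed, and the median log2 difference was -0.25 with A1620 and without it. Eef1d and Eef1g, subunits of the exchange complex of elongation factor 1, were lower at an unadjusted p under 0.05, at -0.82 and -0.69. These were the 2 of the 16 that were, against 6.26% of all tested genes. Of 61 tested ribosome biogenesis genes, 0 passed, and 12 were lower at an unadjusted p under 0.05, against 6.26% of all tested genes. Their median was -0.34, and -0.21 without A1620. Utp14a, which acts in making the small subunit, had 1569, 1986, 1346, 1356 and 1246 normalized counts in the KPC lines and 1050, 772, 938, 1061 and 937 in KPCAf/f. Its groups did not overlap (log2 difference -0.65, SE 0.18, limma adjusted p = 0.122). Nop2, a ribosomal RNA methyltransferase of the large subunit, had 4038, 5226, 3877, 4900 and 3692 in KPC and 3521, 3005, 2427, 2967 and 2314 in KPCAf/f, also without overlap (log2 difference -0.61, SE 0.18, limma adjusted p = 0.132). In both genes A1620 was the highest of the 10 lines. Both were named for a small p among the 61, so that their lack of overlap is no separate result. Of all tested genes, 1.69% were lower without overlap, and the count over the 61 is not given here.

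Of 21 regulators of ribosomal protein mRNAs, 0 passed and the median was 0.04. The mitochondrial ribosomal proteins, which serve a separate ribosome, have a median transcript length of 1316 bases. Of 77 tested, 0 passed and 7 were lower at an unadjusted p under 0.05, against 6.26% of all tested genes. Their median was -0.42, and -0.13 without A1620. Their median excess in A1620 was 1.37, and 0.69 after the length trend, against 1.96 and 0.86 for the 77 cytoplasmic ribosomal protein genes.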

How the data were processed

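RNA was extracted and made into stranded mRNA libraries with kits, per the labels' protocols. The submitters' processing notes list STAR 2.5.2b, Subread 1.5.0p3 with featureCounts, DESeq2 1.14.1, Trimmomatic 0.36, R 3.3.2 and bcl2fastq 1.8.4, and the builds GRCm38.p5 and mm9, all without a role. The annotation, the strand setting and the treatment of reads with several matches are not stated in these sources. Genes with copies or overlapping exons are therefore uncertain.

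The authors deposited a signal that is never negative: gene counts divided by 1 DESeq2 size factor per library. Whole reads were recovered for 100.0% of values within 0.001 read. Ribosomal protein genes, lists and tests were chosen with earlier results of these data known.

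Limma 3.58.1 (R 4.3.3) with an intensity trend was run on log2(value + 1), which understates changes of low genes, with Benjamini-Hochberg adjustment over 13089 genes that had at least 10 normalized counts in at least 5 of 10 lines. Lengths (GENCODE M21, GRCm38) gave a loess curve per line (span 0.75, degree 1), fitted without the ribosomal protein genes and subtracted. Alternatives were other pseudocounts, filters and scalings, edgeR 4.0.16, DESeq2 1.42.0, limma-voom, other lengths and lines left out, and, added after seeing the data, array weights and the shortest principal transcript. The fits were tested on simulated data. Shared sequence was counted in 50-base words of the principal transcripts.

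Genes named are those called, the 8 with the smallest p in each direction, the 4 most and least abundant per length, the 4 most and least variable, X-linked genes, paralog pairs, P stalk genes, and Rpsa, Rpl5, Rpl11, Rps6, Rpl13a, Rpl22, Rpl38 and Rps27l. Rpl24, Rps10, Rps20, Rpl21, Rps28, Rps29, Rps13, Rps24 and the pseudogenes were named after their values were seen. Some genes are not reported here. Promoters come from RefSeq (GRCm38.p6). Figures were drawn with matplotlib 3.10.9.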

Additional observations from a re-analysis of the deposited data

Results flagged for a closer look

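A1620 lay far from the other KPC lines in its share of reads in ribosomal protein genes (12.7%) and in its slope with transcript length (a log2 change of -0.66 per doubling). Its gap to the nearest KPC line exceeded the 95% limit for 5 values in 71 of the 78 genes, where chance flags about 1 group in 20, though genes of one library are not independent. Rps4l stood apart in A1925, at 1018 normalized counts. Rpl21 stood apart in A2441, at 9866 normalized counts, the lowest of the KPCAf/f lines. These are the flags among the 78 genes in KPCAf/f, fewer than 1 in 20. Rps3a3, a pseudogene outside the 78 genes, is compared between genotypes above only in its sum with Rps3a1. It reached 4587 normalized counts in A1693 of KPCAf/f and 3861 in A1081 of KPC.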

How the results depend on the processing

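No ribosomal protein gene was called in any setting run, with or without length correction. The median log2 difference moved from -0.61 to -0.31 under quantile scaling, -0.34 with array weights, -0.29 after length correction and -0.32 without A1620 and A1693, and ran from -0.72 (without A1081) to -0.27 (without A1620) when single lines were left out. After length correction it became 0.063 under quantile scaling and -0.59 with no filter on low values. The length-corrected genes lower at an unadjusted p under 0.05 numbered 0 to 27 over the settings, the highest with no filter, and those higher 0 to 4, the highest under quantile scaling. Array weights gave A1620 the lowest weight. Rpl13a turned to 0.18 without A1620 (the other lines left out gave down to -0.47), 0.068 without A1620 and A1693, 0.039 with array weights and 0.045 after length correction. Rpsa turned to 0.055 under quantile scaling and ranged from -0.47 (without A1081) to 0.072 (without A1620). Rps27l turned to 0.11 after length correction, and Rpl6l, at low counts, to 0.0089 without A1620 and A1693. The other 658 of 666 values of the named genes, each setting changing 1 choice, kept their direction and their side of the threshold. With length correction and without A1620 together, Rpl11 (0.012), Rplp2 (0.029), Rpl6l (0.074), Rps27l (0.079), Rpsa (0.090) and Rpl13a (0.28) were above 0. The Rpl7l1 to Rpl7 ratio difference ranged from 0.15 (without A3992) to 0.63 (without A2031), that of Rpl22l1 to Rpl22 from -0.66 (without A1081) to 0.060 (without A3992), and that of Rps4l to Rps4x from -0.10 (without A1925) to 2.43 (without A1693). The cause of these changes was not tested. No paired analysis was possible because the labels give the lines no shared number, mouse or batch. The standard error of the log2 difference had a median of 0.38 over the 77 genes, against 0.35 over all tested genes, and 0.18 against 0.29 without A1620.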

Other observations

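Further processed pseudogenes of ribosomal protein genes differed widely between lines. Gm11942, a copy of Rplp1, had 3293, 671, 791, 1363, 544, 827 and 571 normalized counts in A1620, A1625, A2031, A1693, A1925, A2441 and A3992, and 4.73, 17.5 and 1.64 in A1081, A2032 and A1809. Rps26-ps1 was at 449, 407 and 132 in A1620, A1625 and A2032 and at 2.25 to 13.3 elsewhere. Gm10263, a copy of Rps28, was at 233 in A2441 and 61.2 in A1693 and at 0.82 to 2.53 elsewhere. Rpl3-ps1, on the X chromosome, was at 14.3 in A1925 and at 206 to 1254 in the other lines. These copies were picked after their values were seen, and no test was run on them.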
